A study of Mus musculus with 9 samples.

Results

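The 10 genes Glul, Oat, Rhbg, Slc1a2, Cyp2e1, Cyp1a2, Axin2, Lgr5, Tbx3 and Lect2 were followed in the livers of Tet-OFF mice given doxycycline (Dox) or tetracycline (Tc), 2 related antibiotics that switch the Tet system. They were chosen by name, as genes known for expression around the central vein or for their response to Wnt signaling, with earlier results of these data known. All 10 were found among the 32285 gene identifiers of the table, and all 10 passed the filter that left 12100 genes for testing, a mean of at least 10 normalized counts (reads divided by a size factor of the library). The liver lobule is divided into zones between the portal tract, where blood enters, and the central vein, where it leaves. Endothelial cells of the central vein release Wnt ligands and R-spondins, which stabilize β-catenin in the neighbouring hepatocytes. Through TCF/LEF factors β-catenin raises a pericentral program of glutamine synthesis and drug metabolism, and it also raises genes that feed back on the Wnt pathway itself.

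All mice carried a piggyBac CAG-CreERT2 transgene, a tTA allele behind a loxP-stop-loxP cassette and a tetO-driven Venus-ires-mCherry reporter, the last pair at the Rosa26 locus. All were male, and every group, controls included, had received tamoxifen, which activates CreERT2 and so removes the stop cassette in front of tTA. Dox hyclate or Tc hydrochloride was given from 4 weeks of age in sweetened drinking water at 2 mg/mL for 7 days, and controls received neither drug. Each group had 3 liver libraries, with 7426136 to 12183041 reads per library. The CAG promoter is broadly active, so recombination was not limited to hepatocytes. In Tet-OFF mice the drugs also shut off the Venus transgene, so an effect of a drug and an effect of transgene silencing cannot be told apart. Whether controls drank sugared water is not given in the sources used here.

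The libraries numbered 3 need care. Each was close to a weighted sum of libraries 1 and 2 of its own group, with weights of 58.3% and 42.1% in controls, 61.3% and 34.6% in Dox, and 62.1% and 36.7% in Tc. Of the genes more than 2-fold apart between libraries 1 and 2, library 3 lay between them for 501 of 586 in controls, 4139 of 4264 in Dox and 962 of 1022 in Tc. The p-values with all 9 libraries are therefore too small. By limma without libraries 3, no adjusted p of the 10 genes was below 0.573 for Dox, 1 for Tc or 0.755 for Dox against Tc, and none of the named list genes described further on was below 0.559, 1 and 0.755. Dox library 2 also stood apart from Dox library 1, with 35.2% of all tested genes more than 2-fold apart, against 4.84% in controls and 8.45% in Tc. Albumin (Alb) was the most abundant of the checked hepatocyte markers in every library, from 255548 to 1408836 normalized counts, as the tissue label says.

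Promoters of 7 of the 10 genes were found in RefSeq (GRCm38.p6), and those of Rhbg, Lgr5 and Tbx3 were not. Each window runs from 250 bases before to 50 bases after the annotated start, and was searched on both strands for the TCF/LEF letters, which are CTTTGAA or CTTTGAT or CTTTGTA or CTTTGTT. At least 1 match was found in 4 of the 7 windows, those of Cyp2e1, Cyp1a2, Lect2 and Slc1a2, and in 16.9% of 32851 mouse promoter windows. The Slc1a2 window lies at a start inside the gene. Glul, Oat and Axin2 held none, which says only that these letters are not in these windows. Shown here 5′ to 3′ are the cytochrome pair Cyp2e1 and Cyp1a2, whose levels went up and down together across libraries, and Lect2 and Axin2, whose differences between Dox and Tc had opposite signs. The windows are chr7:140763569-140763868 on the plus strand (Cyp2e1), chr9:57683606-57683905 on the minus strand (Cyp1a2), chr13:56548489-56548788 on the minus strand (Lect2) and chr11:108920099-108920398 on the plus strand (Axin2). Capitals mark TCF/LEF letters, the TATA box letters TATAAA and, in Lect2, the letters GTTAAT.
Cyp2e1: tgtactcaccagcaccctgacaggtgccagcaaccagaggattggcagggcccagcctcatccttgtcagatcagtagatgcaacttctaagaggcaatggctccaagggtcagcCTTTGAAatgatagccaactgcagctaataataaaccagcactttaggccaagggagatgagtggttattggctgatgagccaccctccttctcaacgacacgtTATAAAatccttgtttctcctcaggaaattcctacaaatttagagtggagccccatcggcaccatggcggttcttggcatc
Cyp1a2: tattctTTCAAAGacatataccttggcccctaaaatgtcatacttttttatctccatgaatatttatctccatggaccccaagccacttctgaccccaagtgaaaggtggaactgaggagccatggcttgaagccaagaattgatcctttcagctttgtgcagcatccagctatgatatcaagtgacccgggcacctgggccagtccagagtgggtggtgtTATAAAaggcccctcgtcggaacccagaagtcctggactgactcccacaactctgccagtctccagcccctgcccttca
Lect2: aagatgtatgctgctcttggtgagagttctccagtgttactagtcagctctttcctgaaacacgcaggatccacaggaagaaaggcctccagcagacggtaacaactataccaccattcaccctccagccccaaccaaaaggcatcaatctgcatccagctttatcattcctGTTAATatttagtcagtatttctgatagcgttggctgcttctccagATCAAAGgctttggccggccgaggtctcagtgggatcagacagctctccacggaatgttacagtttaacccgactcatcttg
Axin2: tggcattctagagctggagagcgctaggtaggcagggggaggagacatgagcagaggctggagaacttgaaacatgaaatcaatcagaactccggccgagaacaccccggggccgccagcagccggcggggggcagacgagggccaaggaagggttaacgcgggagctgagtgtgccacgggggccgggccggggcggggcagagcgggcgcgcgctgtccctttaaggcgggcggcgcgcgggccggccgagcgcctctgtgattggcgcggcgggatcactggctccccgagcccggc
The TCF/LEF letters lie 135 to 129 bases before the start of Cyp2e1, 244 to 238 before that of Cyp1a2 and 32 to 26 before that of Lect2, counted with the start as 0. Those in Cyp1a2 and Lect2 read on the reverse strand. TATAAA was found in the Cyp2e1 and Cyp1a2 windows and in 13.6% of all promoters. GTTAAT, part of the site read by HNF1 factors of the hepatocyte, was found in the Lect2 window and in 7.1% of all promoters. The letters TNGCGTG, the core read by the aryl hydrocarbon receptor, were found in 0 of the 7 windows and in 5.1% of all promoters.

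Per kilobase of exon, the control livers ranked the 10 genes over a wide range. Cyp2e1 was highest at a mean of 15596 normalized counts per kb, followed by Glul at 2525, Oat at 1511, Cyp1a2 at 700.4, Lect2 at 420.2 and Slc1a2 at 166. Tbx3 at 56.6 and Rhbg at 51.1 came next and overlapped between libraries, and Axin2 at 12.9 and Lgr5 at 2.7 were lowest. The metabolic enzymes thus stood above the Wnt regulators Axin2 and Lgr5 in every control library. In Dox livers the ranges of Oat (2582 to 6403 per kb), Glul (2228 to 3079) and Cyp1a2 (1026 to 3924) overlapped. In Tc livers those of Glul (2240.4 to 3440) and Cyp1a2 (1577 to 4102) overlapped, and the highest Oat library (2119) lay above the lowest of Cyp1a2.

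**Figure D1:**
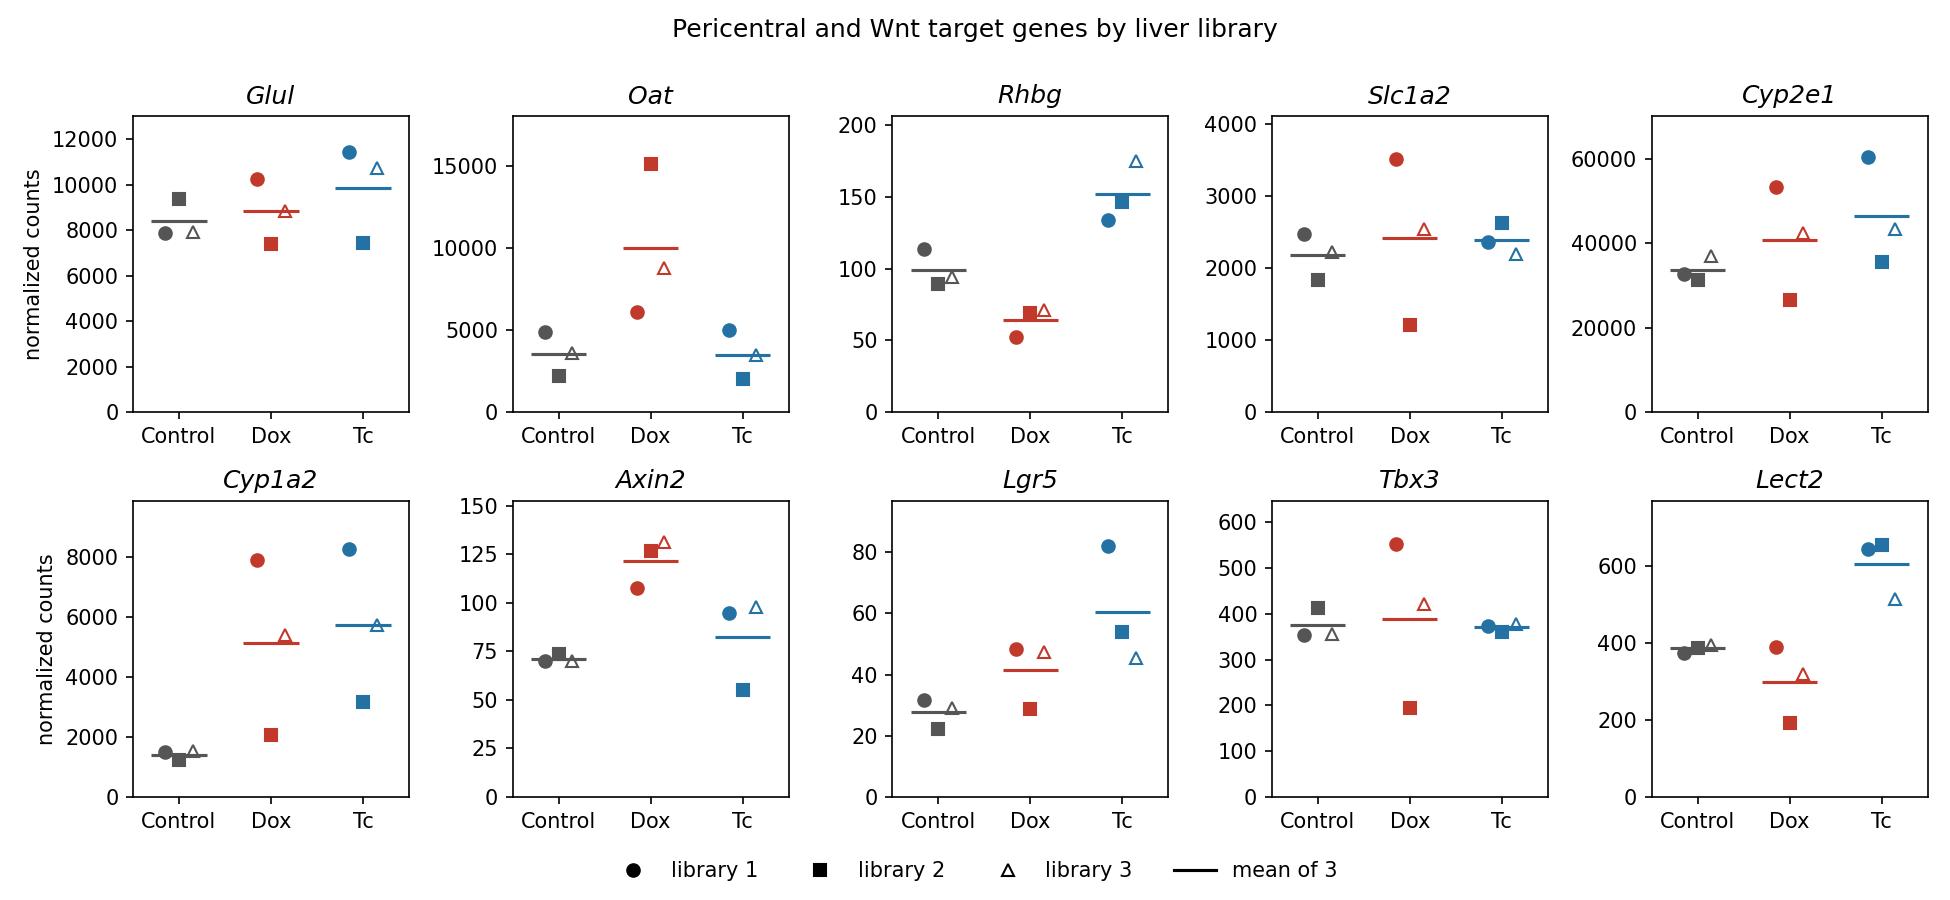
Normalized counts of the 10 genes in each of the 9 liver libraries, 1 panel per gene with its own axis from 0; circles, squares and open triangles are libraries 1, 2 and 3, and lines are group means of 3. Rhbg sits below the control libraries in every Dox library and above them in every Tc library, and Cyp1a2 sits above the control libraries in all 6 treated libraries.

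The genes of nitrogen handling come first. Glul, glutamine synthetase (chr1:153899944-153909723, plus strand), captures ammonia in the last row of hepatocytes around the central vein and is the classical pericentral β-catenin target. Its levels were 7868, 9383 and 7918 normalized counts in controls, 10231, 7403 and 8844.5 in Dox, and 11430.1, 7445 and 10746 in Tc. The 3 groups overlapped, and library 2 was the lowest of its group under either drug but the highest among controls. By limma, the difference from controls was 0.07 ± 0.22 (SE) on the log2 scale for Dox (adjusted p = 0.863) and 0.22 ± 0.22 for Tc (adjusted p = 0.773). The 95% intervals, -0.43 to 0.56 and -0.28 to 0.71, do not include a 2-fold change, though libraries 3 make them too narrow. Glul, Slc1a2, Axin2, Lgr5 and Tbx3 overlap genes on the opposite strand, and Glul also overlaps the same-strand Mir8114. Whether strand was used in counting is not given in the sources used here.

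Oat, ornithine aminotransferase (chr7:132557478-132576398, minus strand), makes glutamate from ornithine beside Glul. Its levels were 4866, 2212 and 3622 in controls, 6095, 15110.4 and 8786 in Dox, and 5001, 2009 and 3462 in Tc. Every Dox library lay above every control and Tc library, while controls and Tc overlapped. The Dox difference from controls was 1.46 ± 0.45 (2.75-fold), with an adjusted p of 0.0753 by limma and 0.0104 by DESeq2. Without libraries 3 the fitted difference was 1.55, with an adjusted p of 0.577 by limma and 0.38 by DESeq2. Dox library 2 was more than 2-fold above Dox library 1 (log2 ratio of library 1 to library 2, -1.31), the reverse of the other 2 groups, where library 1 was higher (1.14 in controls and 1.32 in Tc). The gene overlaps the same-strand Fgfr2 in the annotation, so shared reads cannot be told apart there.

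Rhbg, an ammonium transporter of the cell membrane (chr3:88242874-88254709, minus strand), brings ammonia to the cells that hold Glul. Its levels were 113, 89.4 and 94.1 in controls, 52.6, 69.0 and 71.3 in Dox, and 134, 147 and 175 in Tc. The 3 groups did not overlap, with Dox lowest and Tc highest, and the values rest on 50 to 208 reads per library. The difference from controls was -0.62 ± 0.18 for Dox (limma adjusted p = 0.0683) and 0.61 ± 0.18 for Tc (limma adjusted p = 0.27), and neither passed. Rhbg overlaps the same-strand Gm38392, and reads in the shared part could be lost to either.

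Slc1a2, a glutamate transporter (chr2:102658659-102790784, plus strand), takes up the substrate of glutamine synthetase. Its levels were 2474, 1838 and 2233 in controls, 3512, 1210.1 and 2543 in Dox, and 2358, 2625 and 2197 in Tc. Dox held both the highest and the lowest of the 9 libraries, and the groups overlapped. The limma differences were 0.03 ± 0.34 for Dox (adjusted p = 0.962) and 0.14 ± 0.34 for Tc (adjusted p = 0.92).

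The drug-metabolizing cytochromes showed higher means in treated livers and wide spread among them. Cyp2e1 (chr7:140763739-140774987, plus strand) oxidizes ethanol, acetone and small solvents in the pericentral hepatocyte, and its promoter is the first printed above. Its levels were 32659, 31301 and 37008.5 in controls, 53295, 26552 and 42392 in Dox, and 60449, 35627 and 43410.4 in Tc. Dox library 2 was the lowest of all 9, and both treated groups overlapped controls. The limma differences were 0.22 ± 0.33 for Dox (adjusted p = 0.683) and 0.44 ± 0.33 for Tc (adjusted p = 0.681).

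Cyp1a2 (chr9:57676937-57683703, minus strand) oxidizes caffeine and aromatic amines and answers to the aryl hydrocarbon receptor as well as to β-catenin. Its levels were 1498, 1220.0 and 1512 in controls, 7899.5, 2065 and 5375 in Dox, and 8256, 3173.5 and 5712 in Tc. All 6 treated libraries lay above all controls, and library 2 was the lowest of each group. The difference from controls was 1.66 ± 0.49 for Dox (3.16-fold) and 1.92 ± 0.49 for Tc (3.78-fold). The adjusted p by limma was 0.07 for Dox and 0.203 for Tc, while DESeq2 with all 9 libraries gave 0.00188 and 0.00261 and called both. Without libraries 3, DESeq2 gave 0.275 and 0.843, and the limma differences were 1.58 and 1.92. The ratio of library 1 to library 2 was 1.94 on the log2 scale in Dox and 1.38 in Tc, against 0.30 in controls, so the gap between livers exceeded the fitted difference in Dox and not in Tc.

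Of the Wnt regulators, Axin2 (chr11:108920349-108950783, plus strand) is a scaffold of the complex that destroys β-catenin and is itself a β-catenin target, so it serves as a readout of the pathway. Its levels were 69.9, 73.4 and 69.9 in controls, 107, 126.5 and 131 in Dox, and 94.7, 54.9 and 97.7 in Tc. Every Dox library exceeded every control, and Tc lay on either side of them, with 55 to 149 reads per library. The controls, with an SD of 2.0, lay closer together than counting error alone would give on average. The Dox difference was 0.76 ± 0.23 (1.70-fold), with an adjusted p of 0.0697 by limma and 0.0305 by DESeq2, below the 2-fold limit in either fit. Without libraries 3 the limma difference was 0.70, with an adjusted p of 0.583.

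Lgr5 (chr10:115450311-115587780, minus strand) is a receptor for R-spondins that strengthens the Wnt signal around the central vein. Its levels were 31.8, 22.1 and 29.2 in controls, 48.4, 28.8 and 47.5 in Dox, and 82.0, 54.0 and 45.5 in Tc, resting on 23 to 84 reads per library. Tc lay above controls in every library, and Dox overlapped them. The Tc difference was 1.07 ± 0.30 (2.10-fold), with an adjusted p of 0.247 by limma and 0.0726 by DESeq2, and the Dox difference was 0.55 ± 0.30 (limma adjusted p = 0.26).

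Tbx3 (chr5:119670669-119684724, plus strand), a T-box repressor downstream of β-catenin, had 354.6, 414 and 356 in controls, 553, 194 and 422 in Dox, and 373, 361.5 and 377 in Tc. The 3 Tc libraries were close together inside the control range, and the Dox libraries spread to both sides of it. The limma differences were -0.07 ± 0.33 for Dox (adjusted p = 0.908) and -0.01 ± 0.33 for Tc (adjusted p = 0.995).

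Lect2 (chr13:56542464-56548502, minus strand) encodes a secreted hepatocyte protein and is a liver β-catenin target. Its levels were 375, 388 and 395 in controls, 391, 191 and 318.5 in Dox, and 644.5, 654 and 515 in Tc. Tc lay above all other libraries, and Dox library 1 overlapped controls. The Tc difference was 0.64 ± 0.24 (1.56-fold, limma adjusted p = 0.381) and the Dox difference was -0.42 ± 0.24 (limma adjusted p = 0.275).

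Counted together, 0 of the 10 genes passed the fold limit of 2 and an adjusted p under 0.05 against controls by limma, under either drug. For Dox the background was 5% of all tested genes, and 4 of the 10 had an unadjusted p under 0.05, as did 29.1% of all genes. DESeq2 with all 9 libraries called Oat and Cyp1a2 (background 8.81%), edgeR called Cyp1a2, and DESeq2 without libraries 3 called 0 (background 0.862%). For Tc the background was 0.165% by limma, and again 4 of the 10 had an unadjusted p under 0.05, against 11.7% of all genes. DESeq2 with all 9 libraries called Cyp1a2 (background 1.46%), edgeR called 0, and DESeq2 without libraries 3 called 0 (background 0.0694%). Without libraries 3 limma called 0 genes in either comparison, and 1 of the 10 genes for Dox and 2 for Tc had an unadjusted p under 0.05, against 8.6% and 2.0% of all genes.

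The groups of 3 libraries did not overlap for Axin2, Oat and Cyp1a2 (Dox above controls) and for Rhbg (Dox below), which is 4 of 10 genes against 33.3% of all tested genes. Under Tc they did not overlap for Lgr5, Lect2, Cyp1a2 and Rhbg (Tc above), again 4 of 10, against 30.7%. Cyp1a2 was the gene on both lists with the same direction, and Rhbg was on both with opposite directions. The median log2 difference of the 10 genes was 0.14 for Dox, with 7 above 0, and 0.33 for Tc, with 8 above 0. Over all tested genes the medians were 0.00 and 0.00, with 50% and 50.5% above 0. Both comparisons use the same control libraries. Scaling every library to the same total raised the all-gene median by 0.17 for Dox and the median of the 10 genes to 0.32, and gave 0.00 and 0.32 for Tc.

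**Figure D2:**
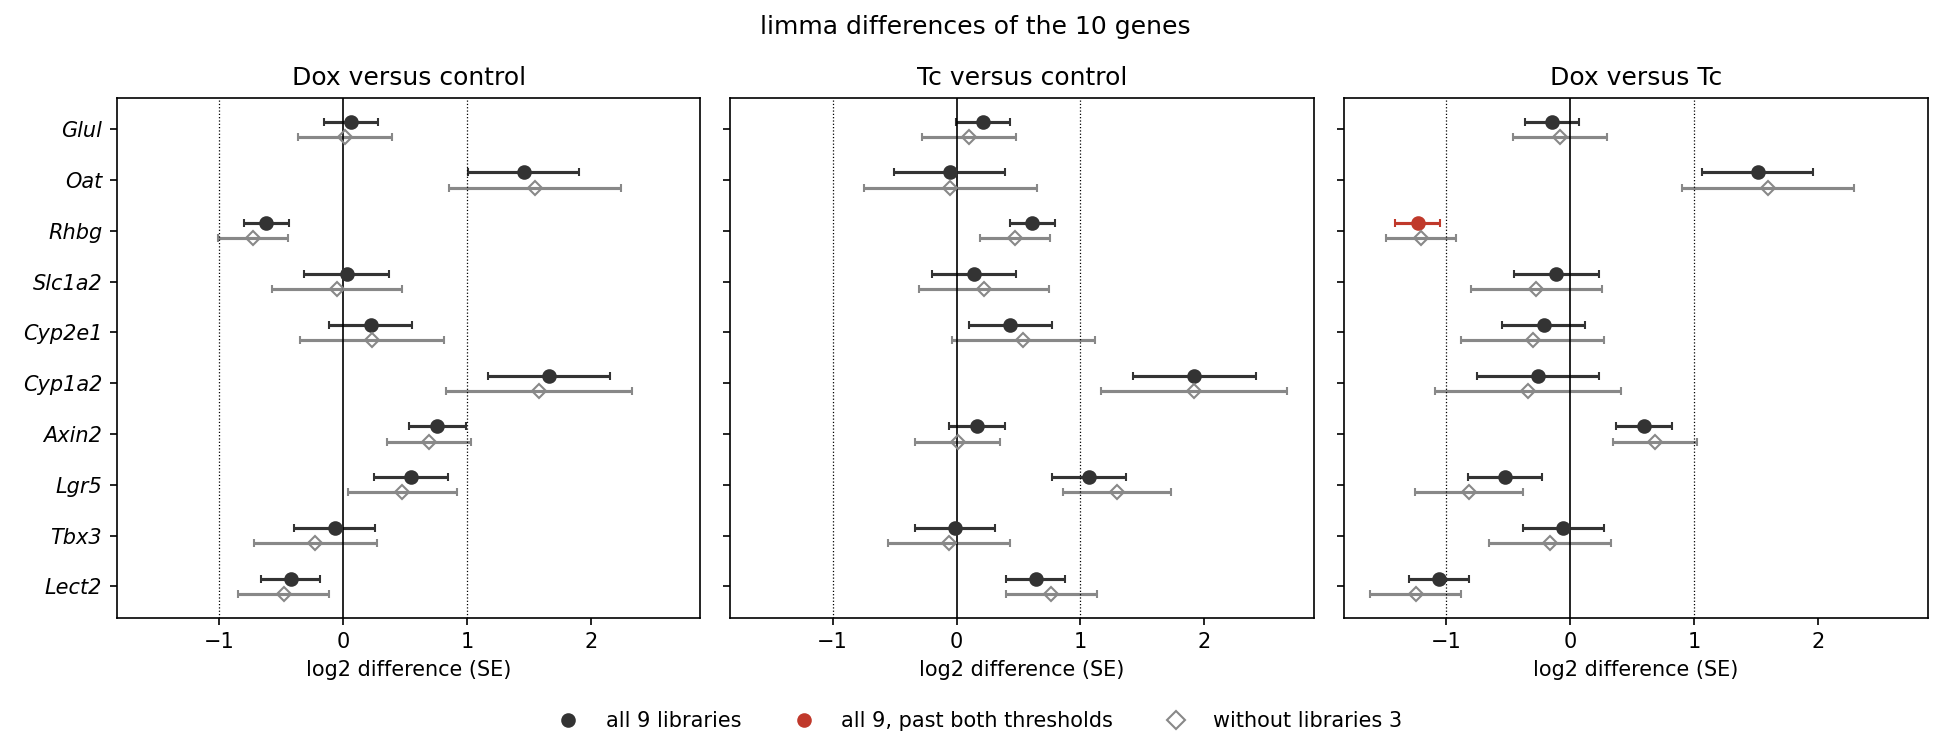
Fitted log2 differences of the 10 genes by limma, with bars of 1 SE; filled circles use all 9 libraries, open diamonds leave out libraries 3, and dotted lines mark a 2-fold change. Rhbg in Dox versus Tc, at -1.23, is the red point past both thresholds, and its SE widens without libraries 3.

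Dox and Tc share the fused rings of the tetracyclines and differ in the position of a hydroxyl group on them. At the same concentration and time they were compared in all 10 genes, with p-values adjusted over all 12100 tested genes. Rhbg was lower in Dox than in Tc by limma, with a difference of -1.23 ± 0.18 (95% interval -1.64 to -0.82, 2.35-fold lower) and an adjusted p of 0.0498. DESeq2 with all 9 libraries gave 2.18e-05. The call did not hold with edgeR (0.0604), with DESeq2 without libraries 3 (0.384), with the replicate number as a block (0.102, or 0.379 with only the Dox and Tc libraries), nor with 6 of the 9 single libraries left out (without Control 1, 2 or 3, Dox 3, Tc 2 or Tc 3, from 0.101 to 0.319). The difference was negative in all 22 alternatives.

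Lect2 was lower in Dox than in Tc by a fitted -1.06 (95% interval -1.61 to -0.51), with an adjusted p of 0.0977 by limma and 0.00581 by DESeq2. Oat differed by 1.51 (0.50 to 2.53), with 0.14 by limma and 0.0161 by DESeq2. Without libraries 3, DESeq2 gave 0.56 for Lect2 and 0.65 for Oat. Axin2 differed by 0.60 (0.08 to 1.11, limma adjusted p = 0.19) and Lgr5 by -0.52 (-1.21 to 0.16, limma adjusted p = 0.319). For the other 5 genes no difference was detected by limma, and the intervals were -0.65 to 0.35 for Glul, -0.89 to 0.67 for Slc1a2, -0.97 to 0.55 for Cyp2e1, -1.38 to 0.87 for Cyp1a2 and -0.80 to 0.69 for Tbx3. Of these intervals, only that of Cyp1a2 includes a 2-fold difference, though libraries 3 make all of them too narrow. In all, limma called 1 of the 10 genes (background 0.215%), DESeq2 called 3 (background 4.72%), edgeR called 0, and DESeq2 without libraries 3 called 0 (background 0.246%). By limma 4 of the 10 had an unadjusted p under 0.05, against 21.7% of all genes. The 2 drug groups did not overlap for Axin2, Oat, Lect2 and Rhbg, 4 of 10 against 24.6%.

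Within the groups, 6 of the 10 genes were more than 2-fold apart between Dox libraries 1 and 2. Cyp1a2, Slc1a2, Tbx3, Lect2 and Cyp2e1 were higher in library 1, by 1.94, 1.54, 1.5, 1.03 and 1.01 on the log2 scale, and Oat was higher in library 2. The median size of this log2 ratio was 1.02 for the 10 genes and 0.70 over all tested genes. In controls only Oat, and in Tc only Cyp1a2 and Oat, were more than 2-fold apart, with medians of 0.27 and 0.61 for the 10 genes against 0.22 and 0.26 for all. Axin2 and Rhbg varied least between the Dox libraries, with log2 ratios of -0.23 and -0.38.

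**Figure D3:**
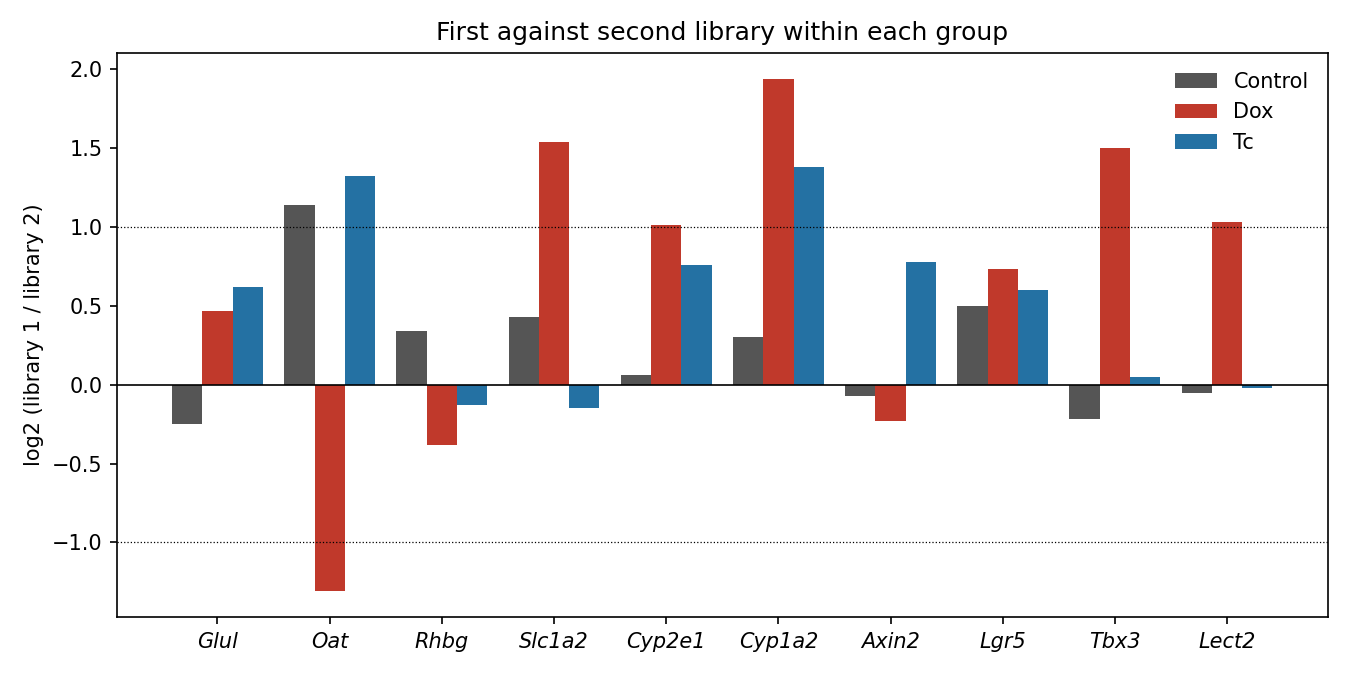
Log2 ratio of library 1 to library 2 of each group for the 10 genes, with dotted lines at 2-fold. Red Dox bars pass a dotted line for 6 genes, with Oat alone going down (-1.31) while its Control and Tc bars go up.

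Across the 9 libraries, log2 levels of Cyp2e1 and Cyp1a2 went together (Pearson r = 0.86), as did those of Slc1a2 and Tbx3 (0.88), Cyp1a2 and Lgr5 (0.88), and Axin2 and Oat (0.84). Oat and Lect2 went opposite ways (-0.75). These are descriptions over 9 libraries that share groups and are not independent, since libraries 3 are near weighted sums of the others. The genes most like Glul among 9378 others with a mean of at least 50 were Pdhx (r = 0.964), Ppm1m (0.964), Phf8 (0.955), Klhdc4 (0.949) and Chmp7 (0.939). Of the 10 genes, Cyp2e1 was closest to Glul (0.81, rank 171) and Oat was farthest (-0.10, rank 5471), although both surround the same vein.

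The wider pericentral program and the Wnt pathway were read from fixed lists, in the same fit. Over all tested genes that fit called 5% for Dox, 0.165% for Tc and 0.215% for Dox against Tc. An unadjusted p under 0.05 was held by 29.1%, 11.7% and 21.7% in the same order. Of 21 other pericentral genes, 3 rose and 3 fell with Dox by limma, with a list median of 0.29. The count of 6 called genes depended on single libraries, with 1 called without Control 1, 0 without Control 2, Control 3 or Dox 3, and 4 without Tc 3. Cyp2a5, which oxidizes coumarin and nicotine, went from 828 to 2384.9 in controls to 7440.4 to 36492 in Dox (3.47, adjusted p = 0.015). Gstm3, a glutathione transferase, rose by 3.04 (adjusted p = 0.0189) and Cyp2c37 by 1.69 (adjusted p = 0.0291). Sult5a1, a sulfotransferase, fell by 2.47 (adjusted p = 0.0144), Cldn2, a tight junction protein, fell by 1.60 (adjusted p = 0.0189), and Slc13a3, a dicarboxylate transporter, fell by 1.15 (adjusted p = 0.0298). DESeq2 without libraries 3 called Cyp2a5, Gstm3 and Sult5a1 of these. With Tc limma called 0 of the 21, and 5 had an unadjusted p under 0.05, against 11.7% of all genes. The largest fitted differences were 2.03 for Cyp2a5 (limma adjusted p = 0.262) and 1.92 for Gstm3 (limma adjusted p = 0.267). Between the drugs limma called 0, and 9 had an unadjusted p under 0.05, against 21.7% of all genes. The largest differences were -2.96 for Cyp7a1, the rate-limiting enzyme of bile acid synthesis (limma adjusted p = 0.0957), and -2.20 for Sult5a1 (limma adjusted p = 0.0746).

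Wnt ligands and their secretion factors were scarce. Of 9 listed genes 7 were tested and limma called 0 in each comparison. For Dox, Tc and Dox against Tc, 2, 0 and 1 had an unadjusted p under 0.05, against 29.1%, 11.7% and 21.7% of all genes. DESeq2 without libraries 3 also called 0. Wnt2, a central vein ligand, had 22.1 to 27.5 in controls, 23.2 to 50.6 in Dox and 21.6 to 34.5 in Tc. Rspo3, an R-spondin bound by Lgr5, had 17.9, 75.9 and 29.9 in Dox, against 21.2 to 28.3 in controls and 18.0 to 26.1 in Tc. Wnt9b had 12.4 to 19.1, 14.7 to 26.5 and 13.5 to 24.4 in the same order. The largest fitted differences were those of Wnt5a, -1.18 for Dox and -1.51 for Dox against Tc, and Wnt4, 1.14 for Dox and 1.07 for Tc. The list medians were 0.36, 0.14 and 0.07.

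All 9 listed receptors and co-receptors were tested, with list medians of 0.17 for Dox, 0.36 for Tc and -0.17 for Dox against Tc. Fzd5, a Frizzled receptor, had 86.8, 90.2 and 103 in controls, 238, 202.5 and 228 in Dox, and 129, 107 and 131 in Tc. Dox stood above all other libraries. Fzd5 rose with Dox by 1.25 ± 0.14 (limma adjusted p = 0.00655) and was also called by DESeq2 without libraries 3 (adjusted p = 0.0483). With Tc limma called 0 of the 9, with 4 at an unadjusted p under 0.05 against 11.7% of all genes. Fzd6 (-0.91) and Fzd8 (0.79) differed most. Between the drugs limma called 0, with 7 at an unadjusted p under 0.05 against 21.7% of all genes. There Fzd6 (1.12) and Fzd4 (-1.03) differed most. DESeq2 without libraries 3 called 0 in these 2 comparisons.

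Of the β-catenin machinery, 16 of 17 genes were tested, with list medians of 0.15, -0.02 and 0.10. Ctnnb1, β-catenin itself, had 1908.5 to 2039 in controls, 1639 to 2514.5 in Dox and 2185 to 2615 in Tc. Tcf7l1, a TCF factor, had 25.4 to 31.0 in controls, 55.4 to 66.7 in Dox and 20.7 to 36.1 in Tc, and rose with Dox by 1.14 ± 0.24 (limma adjusted p = 0.0262, DESeq2 without libraries 3 adjusted p = 0.44). Limma called 0 for Tc, with 2 at an unadjusted p under 0.05 against 11.7% of all genes. Bcl9l (0.60) and Pygo2 (0.32) differed most. It called 0 between the drugs, with 6 at an unadjusted p under 0.05 against 21.7% of all genes. There Tcf7l1 (1.17) and Dvl2 (0.72) differed most. DESeq2 without libraries 3 called 0 in all 3 comparisons.

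Of 11 other Wnt target and feedback genes 8 were tested, with list medians of 0.32, 0.12 and 0.17. Tnfrsf19, a receptor of the tumor necrosis factor family, had 19.1 to 35.4 in controls and 65.6 to 120.0 in Dox, and rose by 1.66 (limma adjusted p = 0.0253). Ccnd1, cyclin D1, had 995.0, 519 and 805 in controls and 177, 15 and 119.7 in Dox, and fell by 3.42 (limma adjusted p = 0.0363). The ubiquitin ligases Znrf3 and Rnf43, which remove Frizzled receptors as Axin2 removes β-catenin, overlapped controls under Dox, with 257 to 390.0 against 190.2 to 260.4 for Znrf3 and 159.9 to 409 against 219 to 251 for Rnf43. Limma called 0 of the 8 for Tc and 0 between the drugs. In each, 1 had an unadjusted p under 0.05, against 11.7% and 21.7% of all genes. DESeq2 without libraries 3 called 0 in all 3 comparisons, with adjusted p-values of 0.227 for Tnfrsf19 and 0.119 for Ccnd1 under Dox. Tc differed most in Tnfrsf19 (1.06) and Ccnd1 (-0.69), and the drugs from each other in Ccnd1 (-2.73) and Myc (0.75). The Myc difference had an SE of 1.49 and a limma adjusted p of 0.772. Dox held both the lowest and the highest Myc levels, with 14.7, 1855.4 and 665.1. Controls had 80.5 to 203.2 and Tc 80.9 to 270.5.

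Beside Cyp1a2, the aryl hydrocarbon receptor battery had 7 of 8 genes tested, and limma called 0 in each comparison. In each, 2 had an unadjusted p under 0.05, against 29.1% of all genes for Dox, 11.7% for Tc and 21.7% between the drugs. DESeq2 without libraries 3 also called 0. Cyp1a1, the classical target of that receptor, had 10.6, 8.8 and 3.8 in controls, 21.1, 18.4 and 23.8 in Dox, and 14.6, 16.2 and 12.6 in Tc. As with Cyp1a2, both drug groups lay above controls, but Cyp1a1 levels were low, at most 23.8 normalized counts. Over all tested genes, 33.3% did not overlap between Dox and controls and 30.7% between Tc and controls. The fitted Cyp1a1 differences were 1.4 for Dox (limma adjusted p = 0.0516) and 0.91 for Tc (limma adjusted p = 0.406). DESeq2 without libraries 3 gave an adjusted p of 0.738 for Dox. Tiparp, another target, had 108.5, 590.1 and 287 in Dox and 55.6 to 109 in Tc, a fitted -0.69 for Tc and 1.80 for Dox against Tc. Cyp1b1 differed by 1.12 for Dox (limma adjusted p = 0.302) and 1.76 for Dox against Tc (limma adjusted p = 0.195). It had 8.4, 55.2 and 19.4 in Dox, 6.2 to 13.8 in controls and 2.7 to 8.8 in Tc. The list medians were 0.54, 0.20 and 0.32.

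Periportal genes, from the opposite end of the lobule, gave a list median of 0.37 for Dox, -0.25 for Tc and 0.50 for Dox against Tc, all 13 tested. Etnppl, which breaks down phosphoethanolamine, had 862 to 1431 in controls, 4959.6 to 14227 in Dox and 1042 to 1143 in Tc, and rose with Dox by 2.90 (limma adjusted p = 0.00744). Its difference between Dox and Tc was 2.92 (limma adjusted p = 0.0487). DESeq2 without libraries 3 called Etnppl in both comparisons (0.000112 and 0.000394), while between the drugs the call was lost with the replicate number as a block (0.101, or 0.306 with only the Dox and Tc libraries) and with edgeR (0.0575). Cdh1, E-cadherin, rose by 1.5 with Dox (limma adjusted p = 0.00744) and by 1.45 with Tc (limma adjusted p = 0.0332), and without libraries 3 DESeq2 kept the Dox call (0.013) and not the Tc call (0.178). Cyp2f2, a cytochrome used as a periportal marker, had 1195, 3242 and 2426 in controls, 21891.5, 138 and 13465 in Dox, and 18478.5, 2319 and 10561 in Tc. Library 2 was the lowest of both drug groups for Cyp2f2 as for Cyp1a2, Glul and Cyp2e1, but Cyp2f2 was not typical of its list, since Dox library 2 was the highest Dox library for 10 of the 13 periportal genes and the lowest for 3. Among the 21 other pericentral genes it was the highest for 8 and the lowest for 13. The Cyp2f2 differences of 0.71 for Dox, 1.86 for Tc and -1.16 between the drugs had adjusted p-values of 0.81, 0.749 and 0.693 by limma.

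**Figure D4:**
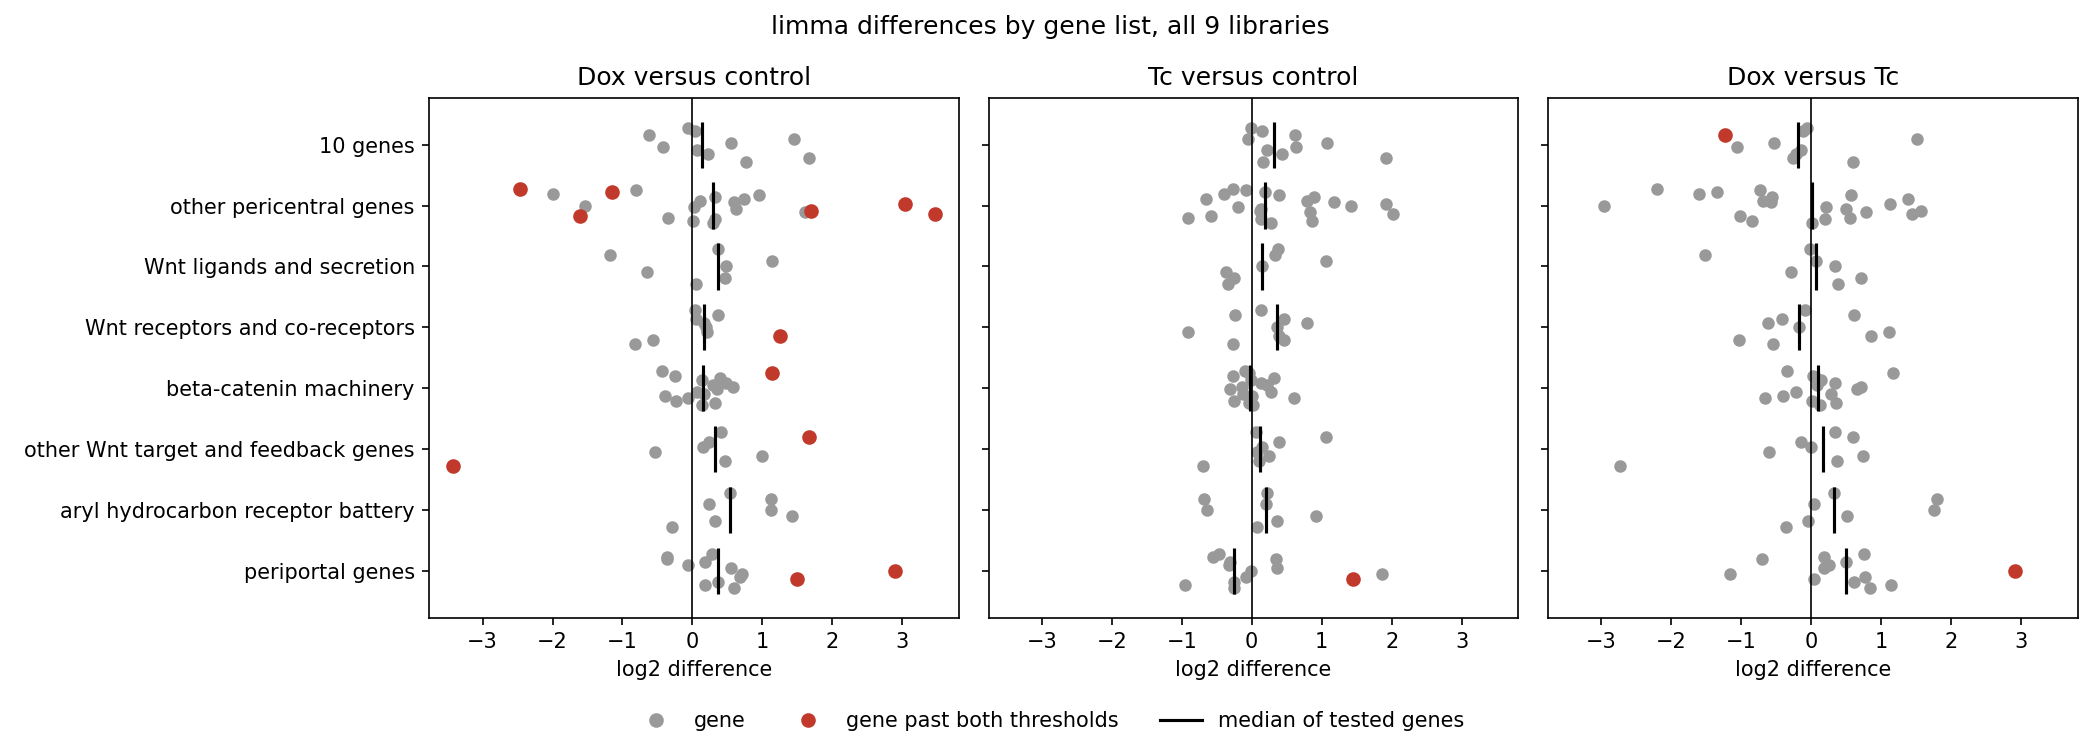
Fitted log2 differences by limma with all 9 libraries for the 10 genes and for 7 lists of the lobule and the Wnt pathway; each point is a gene, red points pass both thresholds, and bars are list medians. Red points are mostly in the Dox panel, at both signs among the other pericentral genes (3 rose and 3 fell), and the medians of the lists stay between -0.25 and 0.54.

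Summed markers of liver cell types differed between groups for some types and overlapped for others. The summed level of 8 endothelial markers was 3039 to 3214 in controls, 1508.9 to 2068 in Dox and 2399 to 2697 in Tc, without overlap. This sum was mostly Stab2, with 1821.6 to 2013 in controls, 818 to 867 in Dox and 1429.6 to 1721 in Tc. As a list the 8 did not fall together, with 4 of 8 above 0 for Dox, 1 called, and a median of 0.04. The sum of 4 Kupffer cell markers was 5075 to 10492.5, 1363 to 5108.5 and 2437 to 4867 in the same order. The sum of 4 hepatocyte markers, mostly Alb, was 1048277 to 1506706 in controls, 443958 to 722907 in Dox and 698728 to 1189500.5 in Tc. Stellate markers overlapped (2165 to 2313, 1815 to 2516 and 2327 to 2483), while 4 cholangiocyte markers summed to 39.2 to 52.1 in controls, 87.4 to 103.5 in Dox and 45.9 to 64.9 in Tc. Neutrophil markers summed to 36.0 to 339.7, 4.2 to 117.3 and 8.8 to 104.3. Of the markers in these sums only Ngp was listed at 0 in any library. The part of these shifts in the levels of the 10 genes was not tested. In whole liver, fewer cells of a type and less RNA per cell cannot be told apart, and zonal positions were not measured.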

How the data were processed

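Liver RNA was sequenced from single ends with a directional kit in 3 Control, 3 Dox and 3 Tc libraries. Per the study's methods and the submitters' processing notes, the authors trimmed reads with cutadapt, aligned them to mm10 with STAR 2.7.11ac, counted uniquely mapped reads per gene with HTSeq 2.0.5 and normalized the counts with DESeq2 1.42.0. The unit of the deposited table is a signal (normalized counts), for which each library's counts were divided by its own size factor. Dividing by the steps between low values gave whole reads for 100% of values (tolerance 0.01). Symbols matched 32158 of 32285 identifiers.

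From the deposited values, log2(normalized count + 1) was fitted with limma 3.58.1 (R 4.3.3, trend, all 9 libraries in 1 model), and p-values were adjusted by the Benjamini-Hochberg method over the 12100 genes whose mean reached 10. A gene was called at a fold change over 2 and an adjusted p under 0.05. DESeq2 1.42.0 and edgeR 4.0.16 (quasi-likelihood) were run on the recovered reads as alternatives. Fold changes on the log2(value + 1) scale understate those of low genes. The limma, DESeq2 and edgeR fits were tested on simulated counts, and the other steps were not. Libraries held 7426136 reads or more, but Axin2, Lgr5 and Rhbg rest on 23 to 208 reads per library. There counting error is not small beside the spread between livers. The control libraries of Axin2 and Lect2 and the Tc libraries of Tbx3 lay closer together than counting error alone would give on average.

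The 10 genes and all lists were chosen with earlier results of these data known. Named were all 10 genes, of each list the genes called by limma with all 9 libraries or by DESeq2 without libraries 3, otherwise the 2 of largest difference per list and comparison, and the 5 genes most like Glul. Where Wnt2, Wnt9b, Rspo3, Ctnnb1, Znrf3, Rnf43, Stab2, Ngp and Alb are given by level, the choice was made after their values were seen. The same holds for Cyp2f2, Gulo, Nr1i3, Rgn, Por, Ahr, Gstm6, Lhpp, Avpr1a, Sox9, Krt7, Krt19 and Epcam. Labels state separate samples and the study's methods speak of biological replicates. Deviations from the group means correlated between Dox and Tc libraries of the same number (r = 0.287, 0.321 and 0.182). These r are not independent, since libraries 3 are near sums of the others. Controls did not correlate with either drug group (from -0.081 to 0.055). On this basis the numbers were taken to pair the libraries for Dox against Tc only. Labels state no pairing, and the reported fit left it out. The block was fitted as an alternative in every comparison. Alternatives changed the pseudocount, filter, scaling, test, groups, libraries, block and thresholds. The erythroid marker list is not reported here. Coordinates are GRCm38 (GENCODE), and promoters are from RefSeq.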

Additional observations from a re-analysis of the deposited data

Results flagged for a closer look

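The difference between the 2 drug effects on Rhbg, the membrane ammonium transporter, was -1.23 on the log2 scale (Dox minus Tc), and was singled out because the effects of the 2 drugs against the same controls differed by the test of the difference itself (limma adjusted p = 0.0498). Every Dox library lay below every control library and every Tc library above, for 6 of 6 treated libraries. This order comes from the values that led to the choice, so it is not separate support. Over all tested genes, 33.3% did not overlap between Dox and controls, 30.7% between Tc and controls and 24.6% between the drugs. How often all 3 groups lay apart was not counted. The call was kept in 4 of 22 alternatives and lost in 18. Among the losses are limma with the replicate number as a block (adjusted p = 0.102, or 0.379 with only Dox and Tc). The reported fit did not use that pairing.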

How the results depend on the processing

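The 30 fitted differences of the 10 genes were recomputed under 637 alternative values in all, of which 577 kept direction and side of the threshold, 14 passed where the reported fit did not, 18 lost the call and 28 changed sign. All 18 losses are Rhbg in Dox against Tc, with adjusted p-values from 0.0509 to 0.755, and its difference stayed below 0 in all 22 alternatives.

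The number of genes called was the least stable value. Against the 605 called for Dox, a mean of at least 50 gave 369, DESeq2 1213, a fit of only the 2 groups compared 333, and DESeq2 without libraries 3 118, while dropping the fold limit gave 1018 and using unadjusted p-values 1242. Limma without libraries 3 called 0, with 1040 at an unadjusted p under 0.05. Against the 20 for Tc, a pseudocount of 0.1 gave 10, no filter 32, a mean of at least 50 gave 9, DESeq2 207, the 2 groups alone 276, DESeq2 without libraries 3 10, the replicate block 2 and unadjusted p-values 389, and limma without libraries 3 called 0, with 239 at an unadjusted p under 0.05. Against the 26 for Dox versus Tc, a pseudocount of 0.1 gave 6, no filter 4, the same total per library 3, DESeq2 633, the replicate block 2 and unadjusted p-values 789. Limma called 0 there with a pseudocount of 8, a mean of at least 50, TMM scaling, the 2 groups alone, without libraries 3 (454 at an unadjusted p under 0.05) and with the replicate block in only the Dox and Tc libraries (1587 at an unadjusted p under 0.05, an alternative chosen after seeing the data), and edgeR called 0. With the same total per library, the Dox calls split into 245 higher and 326 lower in place of 138 and 467, as the median of all genes moved up by 0.17 (0.16 for Dox against Tc).

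Leaving out 1 library gave 33 to 1500 calls for Dox, 1 to 221 for Tc and 0 to 1362 for Dox against Tc. The Dox count passed 1.5 times its value without Dox 1 (1500) or Dox 2 (1102), and fell under it without Control 1, 2 or 3 (241, 124 and 33), Dox 3 (87) or Tc 3 (322). That of Tc was 46 and 221 without Dox 1 and Dox 2, 13 without Tc 2, and 1 to 3 without any other library. That of Dox against Tc was 1362, 179 and 72 without Dox 1, Dox 2 and Tc 1, and 0 without any other. For Dox, the list calls with 1 library left out ranged from 0 to 8 for other pericentral genes, 1 to 2 for receptors, 0 to 1 for the β-catenin machinery, 0 to 3 for other Wnt targets and 0 to 3 for periportal genes. The Dox calls of Tcf7l1, Tnfrsf19 and Ccnd1 were lost without any 1 control library, Dox 3 or Tc 3, that of Ccnd1 also without Tc 1 or Tc 2, and those of Etnppl and Cdh1 without Control 3. The Tc call of Cdh1 was lost without any library other than Dox 1 or Dox 2, and the call of Etnppl between the drugs without any 1 control library, Dox 3, Tc 2 or Tc 3.

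Of the 10 genes, 0 were called for Dox by limma. The same total per library, edgeR and the replicate block called 1 (Cyp1a2 in each), DESeq2 and unadjusted p-values 2, and leaving out 1 library 0 to 1. For Tc, in place of 0, DESeq2 and the 2 groups alone called 1, unadjusted p-values 2, and leaving out 1 library 0 to 1. For Dox against Tc, in place of 1, DESeq2 and unadjusted p-values called 3, leaving out 1 library 0 to 3, and 0 were called with either pseudocount, no filter, a mean of at least 50, the same total per library, TMM scaling, edgeR, the 2 groups alone, without libraries 3 by either tool, and with the replicate block in all libraries or in Dox and Tc only. The cause of these changes was not tested.

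Signs changed in differences close to 0. With the same total per library, Tbx3 gave 0.11 for Dox and 0.12 for Dox against Tc, Glul 0.03 and Slc1a2 0.06 for Dox against Tc. DESeq2 gave 0.06 and 0.07 for Tbx3 in these comparisons and 0.02 for Slc1a2 in the second, edgeR gave 0.04, 0.07 and 0.01, DESeq2 without libraries 3 gave 0.03 for Tbx3 in Dox against Tc, and limma without libraries 3 gave -0.05 for Slc1a2 with Dox. Leaving out 1 library turned the sign of the following, whose ranges over the libraries left out were, with Dox, -0.05 to 0.19 for Glul, -0.3 to 0.46 for Slc1a2, -0.0009 to 0.5 for Cyp2e1 and -0.38 to 0.37 for Tbx3. With Tc they were -0.36 to 0.3 for Oat and -0.05 to 0.06 for Tbx3, and between the drugs -0.44 to 0.32 for Slc1a2, -0.44 to 0.07 for Cyp2e1, -0.67 to 0.3 for Cyp1a2 and -0.37 to 0.38 for Tbx3. The lowest Dox values and the lowest between the drugs came without Dox 1, and the highest without Dox 2.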

Other observations

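Gulo, the last enzyme of vitamin C synthesis, and Nr1i3, the receptor CAR that raises drug-metabolizing cytochromes, are pericentral genes beside the 10 described, chosen here after their values were seen. Gulo had 2158 to 2525 normalized counts in controls, 1622 to 3525 in Dox and 3025 to 5204 in Tc. Nr1i3 had 741 to 855.5 in controls, 673 to 1340.4 in Dox and 1471 to 1486 in Tc. In both genes Tc lay above controls and Dox overlapped them, as for Lgr5 and Lect2. Neither passed the thresholds with Tc by limma. Of the 21 other pericentral genes 0 did, and 5 had an unadjusted p under 0.05, against 11.7% of all genes. DESeq2 without libraries 3 called 0 of them. In that list Tc also lay above controls for Cyp2a5, Cyp7a1, Ahr, Gstm3 and Gstm6, and below them for Rgn, Lhpp, Avpr1a and Cldn2. Over all tested genes, 30.7% did not overlap between Tc and controls. Rgn and Por were likewise chosen after their values were seen. Rgn, regucalcin, had 8445, 265 and 5268 in Dox against 7701 to 10477 in controls. The low value of Dox library 2 in Rgn was shared by Cyp7a1, which had 946, 131 and 640.5 in Dox against 787 to 1850.3 in controls. Por, the reductase that feeds electrons to cytochromes such as Cyp2e1 and Cyp1a2, went the other way, with 4128, 26717 and 12017 in Dox against 4231 to 7508 in controls. Of the 21 other pericentral genes, 11 were more than 2-fold higher in Dox library 1 than in Dox library 2 and 5 were more than 2-fold lower.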
